A study of Arabidopsis thaliana with 3 samples.

Results

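The genes examined here are 31 genes of gibberellin metabolism and signalling in Arabidopsis, chosen by name from the pathway, with earlier results of these data known, out of 27444 protein-coding nuclear genes. They comprise 5 genes of the early steps of synthesis, 5 GA 20-oxidases, 4 GA 3-oxidases, 7 GA 2-oxidases, 5 DELLA genes, 3 receptor genes and 2 F-box genes, and all 31 were found in the annotation, 26 by symbol and 5 by synonym. A gene was counted as bound when the midpoint of a peak lay between 3000 bp upstream of its start and 1000 bp downstream of its end. The peaks come from seq-DAP-seq, in which a pair of differently tagged proteins is made together in vitro, purified by each tag in turn, and allowed to select fragments from sheared genomic DNA. The complex was SEP3-AG(IAP1). It joins FLAG-tagged SEP3, a MADS-domain factor of the inner floral whorls, with Myc-tagged AG(IAP1), the stamen and carpel factor AG carrying the I domain of the sepal and petal factor AP1 in place of its own. The DNA came from young Arabidopsis plants grown on Murashige and Skoog medium in long days. Input DNA served as the control for 3 replicates, which were combined into a consensus list of 3552 peaks of 400 bp each. The list has no heights, read counts or replicate columns, so depth and the spread between replicates are unknown here, and a peak is present or absent.

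Gibberellins are diterpene hormones that promote germination, stem elongation, flowering and the growth of stamens and petals. Terpene cyclases and cytochrome P450 enzymes make their precursors, GA 20-oxidases and GA 3-oxidases convert these into the bioactive hormones, and GA 2-oxidases inactivate them. The bioactive hormone binds a GID1 receptor, the receptor then binds a DELLA repressor, and an F-box protein of an SCF ubiquitin ligase marks the DELLA protein for degradation. MADS-domain dimers bind the CArG box, whose canonical form is CC, 6 bases that are each A or T, and GG.

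The best-scoring site of each of the 10 peaks found in their windows is shown to compare the peaks in sequence. Whether the complex bound at that site was not tested. Each site was scored with a palindromic matrix of 16 bp, fitted on the 3542 peaks outside the windows of the 31 genes, and the score is the log2 ratio, in bits, of the match to the matrix over the base composition of the peaks. A site was called at 7.81 bits or more, the score passed once per 2000 bp of the genome. The 30 bases below are read 5′ to 3′ on the plus strand of the TAIR10 reference, capitals mark the 10 bp core where the CArG box would lie, and the order is from the highest score to the lowest, so that each sequence can be read beside its score.
GA3OX2 and GA3OX4 (chr1:30200692-30200721): cagttaatttCTAATAATGGaaagagattg
GA2OX8 (chr4:11301641-11301670): ttactatttaCTAAATATGGtaaaaagctc
GA2OX4, upstream peak (chr1:17696738-17696767): taagcattttCTATTTTTAGtatggaattt
RGL1 (chr1:24751131-24751160): atatttcggaCCATTTAAGGaaagcaatat
GID1A (chr3:1429738-1429767): ggtataattaCTAAAAATAGtcatatgctt
GA2OX4, intron peak (chr1:17699785-17699814): caacttctttCTGAAAGTAGaaatattaag
GAI (chr1:5148247-5148276): ccaattttatCTACAAATAGcaaaaaaaat
KAO2 (chr2:13775292-13775321): acatatttttCTCAAAGAAGtaaaggctta
GID1C (chr5:9629306-9629335): attgactttgCTGATTTTGGgtattatctg
GID1B (chr3:23286570-23286599): cctttcttttCTTTTTTGGGgttgatttgc
The RGL1 core is a canonical CArG box. The cores at GA3OX2 and GA3OX4 and at GA2OX8 differ from the canonical box at 1 base, and those at KAO2 and at the intron peak of GA2OX4 differ at 4.

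Of the 31 genes, 10 had a peak in their window, or 32.3% (exact Clopper-Pearson 95% interval 16.7 to 51.4%, for counting error only). Across all protein-coding genes 4945 of 27444 had a peak, which is 18.0%, and this value lies inside the interval of the 31 genes. The windows of the 31 genes ran from 5121 to 11152 bp. Among genes whose window length was within 10% of each of the 31 genes, the mean share with a peak was 18.1% (14.9 to 23.2%), equal to 5.62 bound genes where 10 were counted. Since the replicates were joined before deposit, no test against the spread between replicates was possible, and these shares are descriptions. With any overlap of a peak and the window in place of its midpoint, 10 genes were again bound, against 19.1% of all genes. With the window cut to 1000 bp upstream and the gene body, 6 were bound, against 9.91%, and GA3OX4, GA2OX8, RGL1 and GID1B were lost. The bound genes were KAO2, GA3OX2, GA3OX4, GA2OX4, GA2OX8, GAI, RGL1, GID1A, GID1B and GID1C. They held 10 distinct peaks, because GA2OX4 had 2 peaks and the adjacent genes GA3OX2 and GA3OX4 shared 1. The exact interval takes the genes as independent, which this adjacent pair is not.

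**Figure D1:**
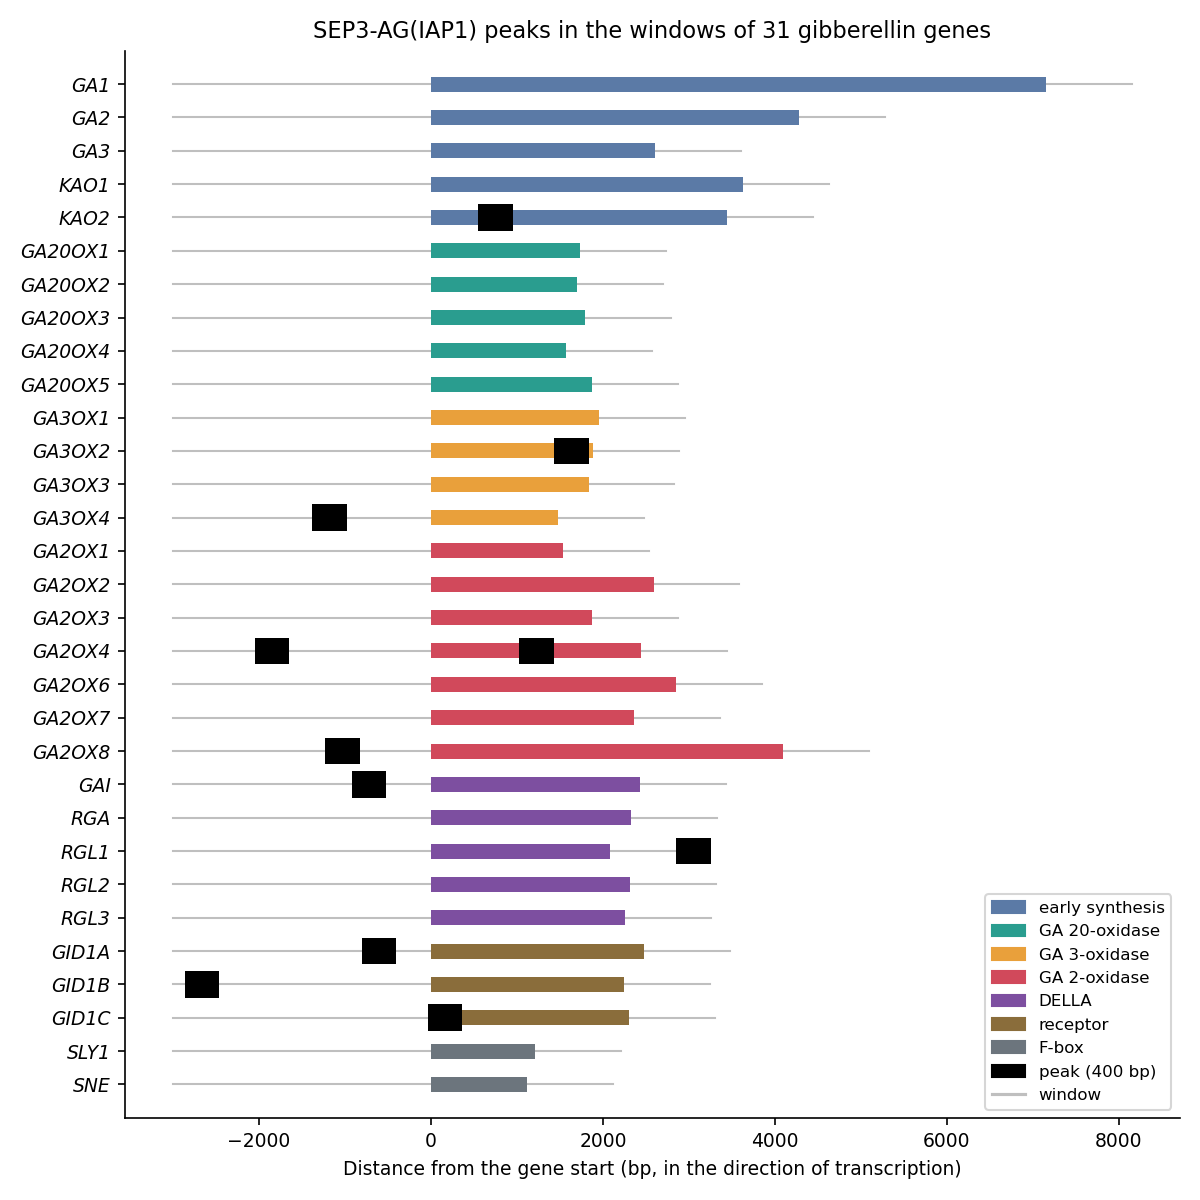
Each row is 1 of the 31 genes, with the gene body as a coloured bar, the window as a grey line and each 400 bp peak as a black bar, against the distance from the gene start in bp in the direction of transcription. Peaks lie upstream in 6 of the 11 gene and peak pairs, and no GA 20-oxidase or F-box gene has a peak in its window.

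The bound genes were spread unevenly over the roles. All 3 GID1 receptor genes had a peak (exact interval 29.2 to 100%), where the mean share for genes of like window length was 18.2%. Of the GA 3-oxidases, 2 of 4 had one, of the DELLA genes 2 of 5, of the GA 2-oxidases 2 of 7, and of the early synthesis genes 1 of 5, where the like-length shares were 16.6, 18.0, 18.7 and 21.9%. None of the 5 GA 20-oxidases and neither of the 2 F-box genes had a peak, where the like-length shares were 16.2 and 14.9%, or 0.812 and 0.298 genes. With so few genes the exact intervals were 0 to 52.2% and 0 to 84.2%, and a count of 0 was near this background. Grouped by stage, 5 of 10 signalling genes were bound (50%, exact interval 18.7 to 81.3%), where the like-length share was 17.4%. Of the metabolism genes 5 of 21 were bound (23.8%, 8.22 to 47.2%), close to the like-length share of 18.5%. The intervals of the stages overlap, and the difference between roles or stages was not tested. The counts by role changed with the rule, and the stage counts with them. By nearest start 1 DELLA gene, 1 GA 3-oxidase and 2 GA 20-oxidases were bound. With 1000 bp upstream to the gene end the counts were 2 receptor genes, 1 DELLA gene, 1 GA 3-oxidase and 1 GA 2-oxidase.

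**Figure D2:**
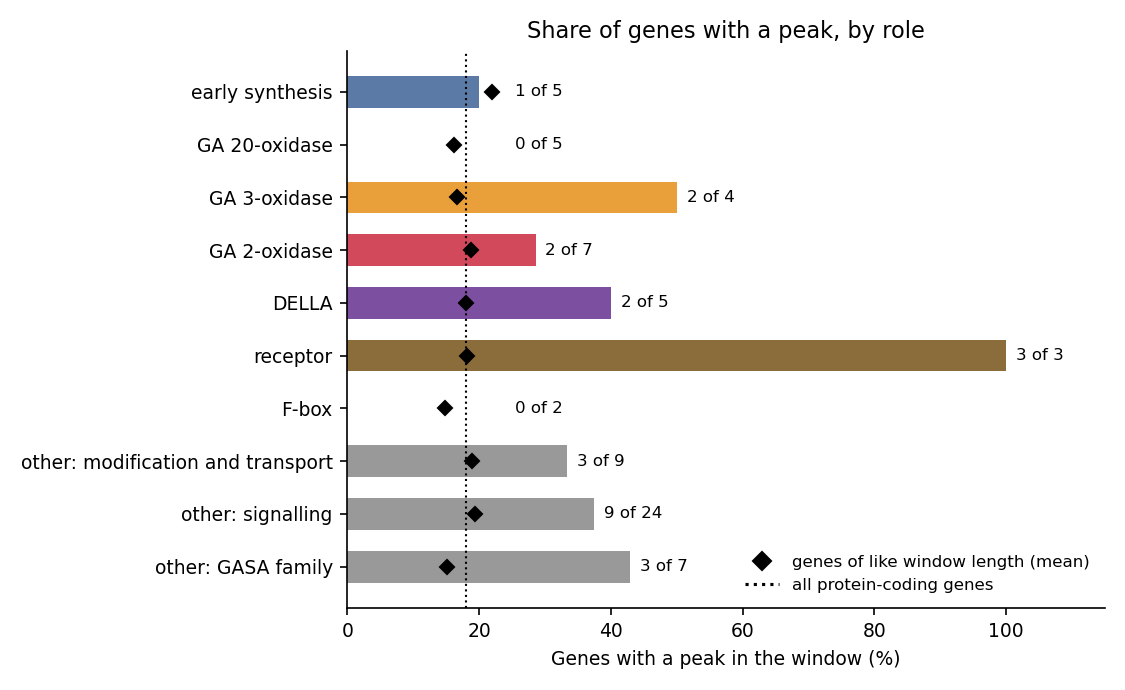
Bars give the percentage of genes with a peak in their window for the 7 roles and for 3 lists of other gibberellin genes in grey, with the count beside each bar. Diamonds mark the mean share of genes of like window length and the dotted line the 18.0% of all protein-coding genes, and the receptor bar stands at 3 of 3.

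In early synthesis, GA1 and GA2 encode the cyclases that make ent-kaurene, GA3 encodes ent-kaurene oxidase, and KAO1 and KAO2 encode ent-kaurenoic acid oxidases that complete the precursor of all gibberellins. Only KAO2 of these 5 had a peak, at chr2:13775137-13775536, with its midpoint 749 bp downstream of the start in intron 1. The best site scored 9.10 bits, above 30.2% of the peaks outside the 31 windows, and a second site scored 7.95 bits with 27 bp between the cores. The best site lay 30 bp from the peak centre and the second 7 bp from it, so the weaker site was the more central. The peak also fell in the windows of the neighbours AT2G32430 and AT2G32450, and the start of KAO2 was the nearest. The sequence around the centre is shown because its 2 sites differ both in score and in form, the weaker core being 1 base from the canonical box and the better core 4, with both cores in capitals.
KAO2 (chr2:13775277-13775396): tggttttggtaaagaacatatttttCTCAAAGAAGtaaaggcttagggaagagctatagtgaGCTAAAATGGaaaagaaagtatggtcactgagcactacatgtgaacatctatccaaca
KAO1, its paralogue, had no peak, although its window held 4 called sites with a best score of 11.7 bits in an intron. GA1, with the longest window of the 31 genes, held 4 called sites, the best of 12.1 bits in an intron. The GA2 window held a single called site of 7.85 bits, the lowest best score of the 31 windows. The GA3 window held 7 called sites and 2 canonical boxes, and its best site of 11.8 bits, 1526 bp upstream, was itself a canonical box outside any peak. For early synthesis as a whole, the gene with a peak was thus not the one with the strongest site in its window.

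The GA 20-oxidases carry out the oxidation steps that remove a carbon atom from the precursors and are often the limiting step in hormone supply. GA20OX1, GA20OX2, GA20OX3, GA20OX4 and GA20OX5 all lacked a peak in the window. Called sites were present in each of the windows, from 1 at GA20OX1 to 8 at GA20OX4. The GA20OX4 window held 3 canonical boxes and a site of 12.6 bits 2357 bp upstream of the start, and no peak lay on any of them. GA20OX3 held 5 called sites, GA20OX5 held 3 and GA20OX2 held 2, and their best scores were 9.94, 10.5 and 8.80 bits. Beyond the windows, 3 of these 5 genes had a peak within 3000 bp of a limit. They were the only ones of the 21 unbound genes to have one (14.3%), against 16.9% of all 22499 genes with no peak in their window. The GA20OX3 peak at chr5:2241760-2242159 lay 1593 bp past the gene end, 593 bp beyond the limit, with a best site of 11.7 bits. The GA20OX2 peak at chr5:21061373-21061772 lay 4692 bp upstream, 1692 bp beyond the limit, with a best site of 13.8 bits, above 85.9% of the other peaks. Both were nearest to the start of the GA 20-oxidase. The GA20OX1 peak at chr4:12988649-12989048 lay 2002 bp past the gene end with no called site, and AT4G25410 had the nearest start. The sites of the peaks nearest to a GA 20-oxidase are shown because GA20OX2 and GA20OX3 counted as bound by the nearest-start assignment, whereas GA20OX1, GA20OX4 and GA20OX5 had no peak under any window or assignment tried.
GA20OX2, beyond the window (chr5:21061547-21061576): tgtacattttCTATTTTTGGaattcaaacg
GA20OX3, beyond the window (chr5:2241974-2242003): tttgtcctttCCTTAATTAGtagtactata

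The GA 3-oxidases make the bioactive hormone in the last step of synthesis. GA3OX2 and GA3OX4 lie next to each other on chromosome 1, and 1 peak at chr1:30200517-30200916 fell in both windows. Its midpoint was in coding exon 2 of GA3OX2, 1632 bp downstream of that gene's start, and 1180 bp upstream of the start of GA3OX4, which was the nearest start. The site scored 15.6 bits, the highest of the 10 peaks and above 96.6% of the other peaks, and lay 10 bp from the peak centre within protein-coding sequence. To which of the genes the peak belongs cannot be told from position. AG is known to activate transcription of GA3OX1 in flowers, but that is native AG in the plant, not this chimera in vitro. The SEP3-AG peaks were not used here, so an effect of the I domain on this gene cannot be told. GA3OX1 had no peak within its window, which held 6 called sites of up to 11.8 bits. GA3OX3 had none either, with 3 called sites of up to 11.2 bits.

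The GA 2-oxidases inactivate gibberellins, GA2OX7 and GA2OX8 by acting on early precursors and the others by acting on the hormones and their direct precursors. GA2OX8 had a peak at chr4:11301454-11301853, 1028 bp upstream of its start and in the window of no other gene. Its site scored 15.2 bits, above 95.1% of the other peaks, and lay 2 bp from the peak centre. GA2OX4 was the only gene of the 31 with 2 peaks. The upstream peak at chr1:17696548-17696947 had its midpoint 1850 bp from the start and a site of 11.4 bits, 5 bp from the centre, and it was also in the window of AT1G47980. The other, at chr1:17699623-17700022, lay in intron 1, 1225 bp downstream of the start, with a site of 10.2 bits 23 bp from the centre. The highest-scoring site of the GA2OX4 window, 12.5 bits at 2520 bp upstream, was in neither peak. GA2OX1, GA2OX2, GA2OX3, GA2OX6 and GA2OX7 had no peak, with best window scores of 8.76, 11.7, 11.2, 10.2 and 11.6 bits. The GA2OX8 stretch is shown as the strongest site upstream of a gene that lay in no other gene's window.
GA2OX8 (chr4:11301594-11301713): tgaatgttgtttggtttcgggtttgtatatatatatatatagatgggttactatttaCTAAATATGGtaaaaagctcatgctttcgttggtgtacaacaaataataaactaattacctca

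GID1A, GID1B and GID1C encode the soluble receptors, which act partly redundantly. Each had 1 peak, and in each case its own start was the nearest, but the peaks differed in place and in site. The GID1A peak at chr3:1429555-1429954 was 608 bp upstream of the start, also in the window of AT3G05110, with a site of 10.4 bits 2 bp from the centre. The GID1B peak at chr3:23286380-23286779 was 2663 bp upstream, 337 bp inside the limit of the window, and its best site of 6.65 bits was below the threshold and above only 7.34% of the other peaks. The GID1C peak at chr5:9628953-9629352 had its midpoint in the 5′ UTR, 163 bp downstream of the start. Its best site of 8.47 bits lay 168 bp from the centre, and a second of 7.88 bits lay 39 bp from it. GID1B and GID1C thus had the 2 lowest best scores of the 10 peaks, although every receptor gene was bound by the window rule. A further GID1C peak lay 2966 bp beyond the downstream limit, nearest to AT5G27330. The highest-scoring site of each receptor window lay outside its peak, at 10.5 bits for GID1A, a canonical box downstream of the gene, at 9.66 bits for GID1B and at 12.2 bits for GID1C. Whether this is usual for genes with a peak was not counted.

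**Figure D3:**
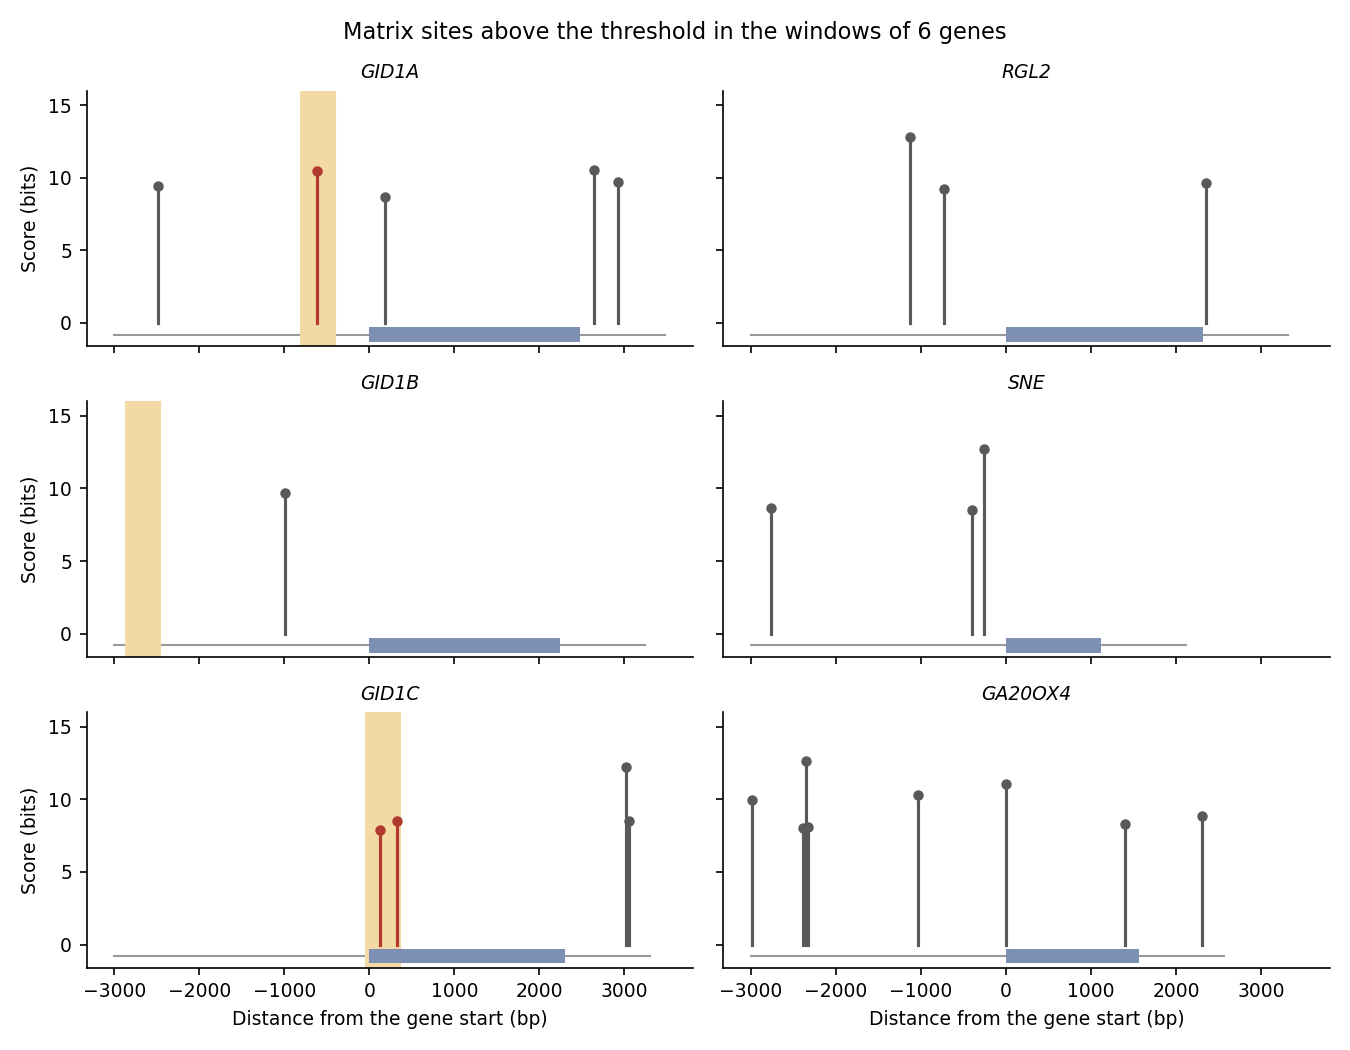
Vertical lines give the score in bits of each called site against the distance from the gene start in bp, for the 3 receptor genes on the left and the 3 unbound genes with the highest-scoring window sites on the right. Shaded bands are the 400 bp peaks, red lines are sites inside a peak and grey lines sites outside, and blue bars are gene bodies. The best sites of RGL2, SNE and GA20OX4, at 12.8, 12.7 and 12.6 bits, exceed those of the receptor peaks.

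The DELLA genes encode nuclear repressors of gibberellin responses. GAI had a peak at chr1:5148060-5148459, 722 bp upstream of the start and in the window of no other gene. It held a pair of sites of nearly equal score, 9.44 and 9.34 bits, with 20 bp between the cores. A stronger site of 12.9 bits in the 5′ UTR of GAI, 363 bp downstream of the start, was in no peak. The RGL1 peak at chr1:24750956-24751355 was 970 bp past the end of the gene, 30 bp inside the limit of the window. It lay nearer to the start of the next gene, AT1G66360, 154 bp upstream of it, and also in the window of MYB113. The canonical box in this peak scored 10.7 bits, and a second site of 9.56 bits followed with 10 bp between the cores. Both DELLA peaks are shown because they hold the 2 closest pairs of sites, with the cores in capitals.
GAI (chr1:5148200-5148319): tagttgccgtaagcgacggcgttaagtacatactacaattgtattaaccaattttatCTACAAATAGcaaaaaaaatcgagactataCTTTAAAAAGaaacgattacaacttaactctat
RGL1 (chr1:24751096-24751215): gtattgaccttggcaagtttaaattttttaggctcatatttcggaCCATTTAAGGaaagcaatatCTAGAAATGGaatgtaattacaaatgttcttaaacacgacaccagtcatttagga
RGA, RGL2 and RGL3 had no peak. RGA, the closest paralogue of GAI, had 2 called sites of up to 9.32 bits, and RGL2 had the highest-scoring site of all unbound genes of the 31, 12.8 bits at 1130 bp upstream. The F-box genes SLY1 and SNE, whose proteins recruit DELLA proteins to the ubiquitin ligase, had no peak, with best window sites of 9.34 bits and, at SNE, 12.7 bits at 259 bp upstream. The sites of the 3 unbound genes with the highest scores are given for comparison with the sites in peaks.
RGL2, unbound (chr3:822768-822797): gcatgcttttCCATTTTTAGtcatttgatg
SNE, unbound (chr5:19533635-19533664): ttgataccttCCAATAGTGGaaaatgctat
GA20OX4, unbound (chr1:22450202-22450231): ttattaatttCTAAAAAAAGtaaccaatta

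The 10 peaks were compared with the 3542 peaks outside the windows of the 31 genes for features that the window rule did not use. A canonical CArG box was found anywhere in 1 of 10, RGL1, against 15.98% of the other peaks and 2.34% of 290279 unbound 400 bp regions, which were not matched for base composition. With at most 1 mismatch the box was found in 8 of 10, against 80.0% of the other peaks and 39.7% of unbound regions. GAI and GID1C held no box at 1 mismatch. A called matrix site was present in 9 of 10 peaks, all but GID1B, against 84.6% of the other peaks and 16.3% of unbound regions. On these counts the peaks at gibberellin genes were close to the other peaks.

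Best scores ran from 6.65 to 15.6 bits with a median of 10.3 bits, and those of the other peaks from 0.402 to 18.3 bits with a median of 10.7 bits. GA3OX2 and GA3OX4, with GA2OX8, stood apart at the top, and a gap separated them from the next site, the 11.4 bits of the upstream peak of GA2OX4. The best site lay within 25 bp of the peak centre in 8 of 10 peaks, all but KAO2 and GID1C, against 68.4% of the other peaks. A pair of called sites, and no further site, was present in 4 of 10, at KAO2, GAI, RGL1 and GID1C, against 24.96% of the other peaks. None of the 10 held 3 or more, against 5.19% of the other peaks, a share too low to be resolved with 10 peaks. These differences were not tested. The GC content was 29.25 to 37.25% with a median of 32.1%, against a median of 32.5%.

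**Figure D4:**
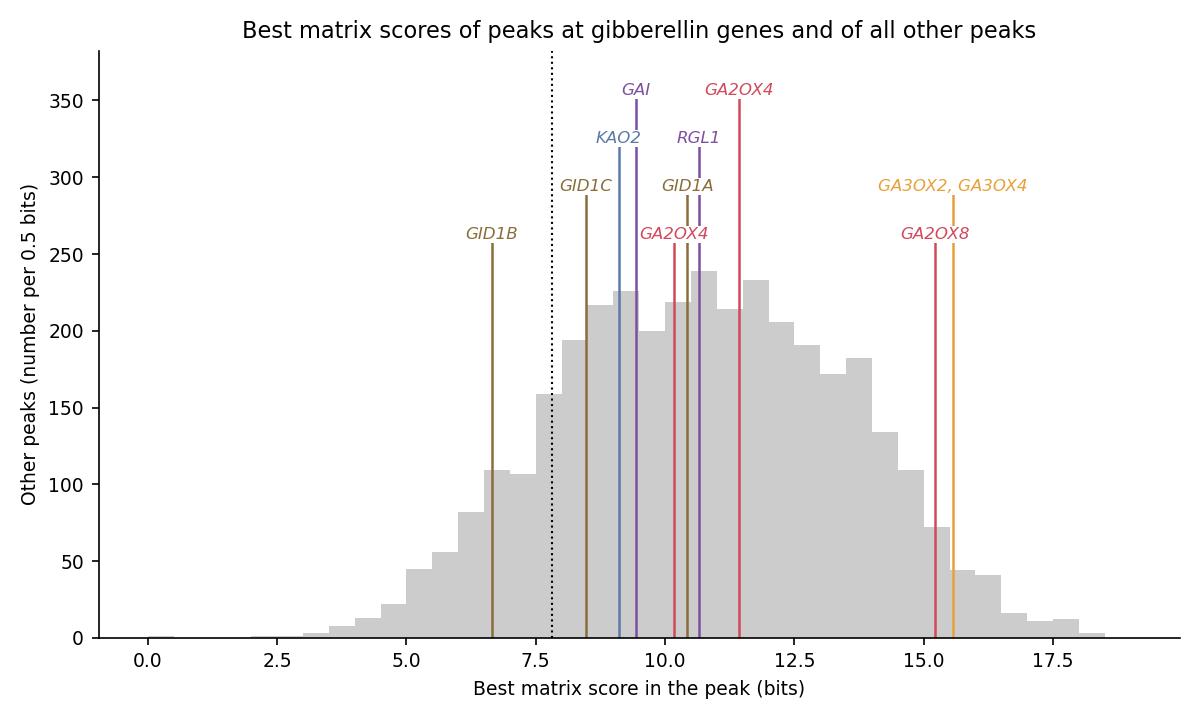
Grey bars count the 3542 other peaks by best matrix score in steps of 0.5 bits, and coloured lines mark the best scores of the 10 peaks at gibberellin genes, coloured by role, with the height of a line carrying no value. The dotted line is the threshold of 7.81 bits, with GID1B below it at 6.65 bits and GA2OX8 and the shared peak of GA3OX2 and GA3OX4 at 15.2 and 15.6 bits.

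The windows hold more called sites than lay in a peak. The 31 windows held 127 distinct called sites, of which 13 lay in a peak (10.2%), and 7.31% of 58878 called sites in the genome lay in a peak. Between 7.81 and 9 bits 3 of 55 sites in the windows were in a peak, and at 14 bits or more 2 of 2, where the genome shares were 3.87 and 50.2%. From 12 to 13 bits 0 of 8 sites were in a peak, where the genome share was 18.6%. The windows held no site from 13 to 14 bits. Among these 8 were the best window sites of RGL2, SNE, GA20OX4 and GA1, which had no peak, and of GAI, GA2OX4 and GID1C, which had a peak elsewhere. Of 18 canonical boxes in the windows 1 was in a peak (5.56%), against 7.69% of 7741 in the genome. In 6 of the 10 bound genes the best site of the window lay outside the peak, the exceptions being GA3OX2, GA3OX4, GA2OX8 and RGL1. How often this happens among all 4945 genes with a peak was not counted, so it cannot be called particular to these genes. Windows with a peak had a median best score of 12.3 bits and windows without a peak 11.2 bits. For all genes the medians were 11.85 bits in windows with a peak and 10.05 bits in windows without, so the order was the same. The cause of this difference was not tested.

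**Figure D5:**
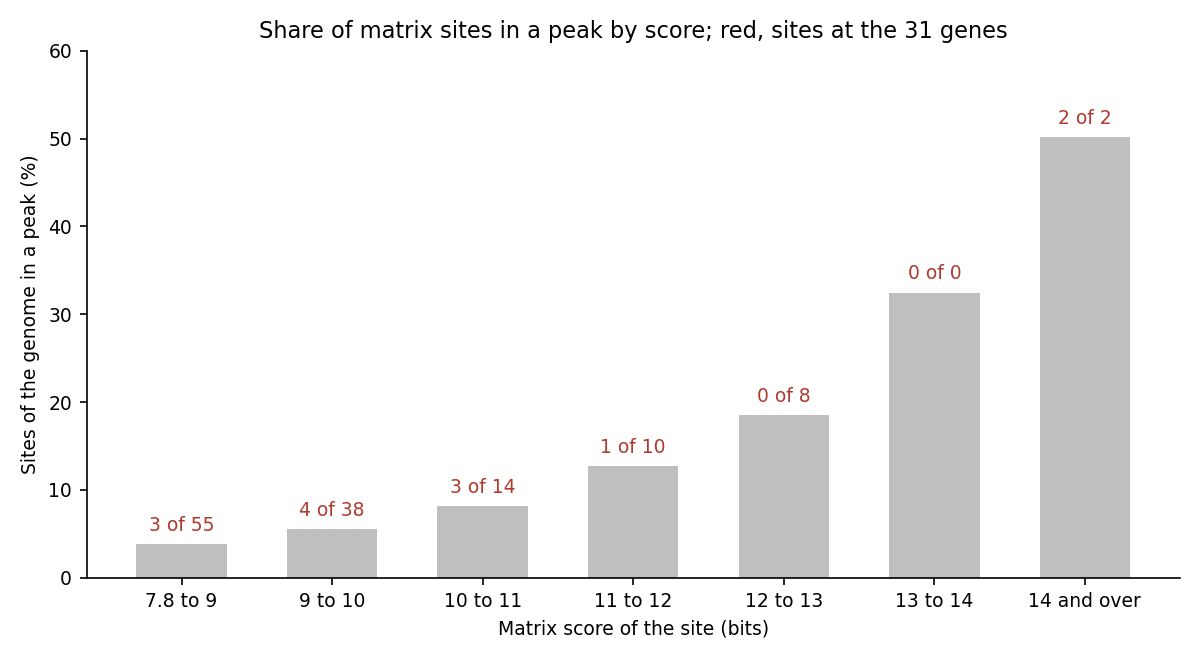
Bars give the percentage of called sites in the genome that lie in a peak, by matrix score in bits, rising from 3.87% below 9 bits to 50.2% at 14 bits or more. The red counts above the bars give the sites in a peak of all sites in the windows of the 31 genes, 0 of 8 between 12 and 13 bits.

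Other genes of the pathway were listed from its known members, also with earlier results known, and 40 of 50 were found in the annotation. Of these 40, 15 had a peak (37.5%, exact interval 22.7 to 54.2%), where the mean share for genes of like window length was 18.6%. In modification and transport 3 of 9 were bound (exact interval 7.49 to 70.1%), where the like-length share was 18.9%. NPF3.1, a gibberellin transporter, had a peak 426 bp upstream with a site of 13.8 bits, SWEET13, a sugar and gibberellin transporter, had 8.67 bits, and CYP714A1, a P450 that inactivates gibberellins, 4.85 bits. In signalling 9 of 24 were bound (exact interval 18.8 to 59.4%), where the like-length share was 19.4%. PIF3, PIF4 and PIF5, light-regulated factors held inactive by DELLA proteins, had best sites of 15.2, 13.4 and 12.1 bits. PIF1, in the same list, had no peak, although its window held 8 called sites with a best score of 12.6 bits. PRE1, a gibberellin-induced helix-loop-helix gene, had 14.1 bits, and IDD2, a zinc-finger partner of DELLA proteins, 12.02 bits. Of the other IDD genes in the list, IDD1 and MGP had a peak and JKD, IDD4 and IDD5 did not. In the GASA family of gibberellin-induced peptides 3 of 7 were bound (exact interval 9.90 to 81.6%), where the like-length share was 15.2%. These were GASA6 at 13.2, GASA4 at 12.7 and GASA1 at 6.70 bits. The difference of these lists from the like-length shares was not tested.

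A peak at a gene counts a place where the complex bound naked DNA in vitro. Transcripts were not measured in this experiment, and 5 of the 10 peaks also lay in the window of another gene, the shared peak of GA3OX2 and GA3OX4 included.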

How the data were processed

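Seq-DAP-seq of SEP3-AG(IAP1) was done in 3 replicates against input DNA. The authors removed adaptors with NGmerge, mapped reads with bowtie2 to TAIR10 without organelle genomes, removed duplicates with samtools, called peaks per replicate with MACS2, joined replicates with MSPC, cut multi-summit peaks apart and set every peak to 200 bp on either side of its summit. Tool versions: not given in the sources used here. What the authors deposited is positions in bp only (no other unit), so heights and depth are unknown, and strict calling and joining decide which sites appear at all.

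Genes and sequences were taken from the RefSeq annotation and sequence of TAIR10, and the last peak of each chromosome ended inside the reference chromosome. Coordinates count from 1. The 16 bp matrix came from 30 rounds of expectation maximisation (palindromic, at most 1 site in a peak), begun at a CArG box between TT and AA. It was tested on simulated data. Intervals are exact Clopper-Pearson intervals at 95%. Boxes were sought on both strands, and a region counts once however many overlapping boxes it holds. Python 3.11.15, numpy 2.4.6, scipy 1.17.1 and matplotlib 3.10.9 were used.

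The members, lists and windows were chosen with earlier results of these data known. All members are named. Of those without a peak, the 3 with the highest window scores are given in full. Scores are given for up to 5 bound genes of each other list, by highest score, and for PIF1, which had no peak. Alternatives were other windows and assignments, box forms, thresholds and matrices. The SEP3-AG peaks were not used here.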

Additional observations from a re-analysis of the deposited data

How the results depend on the processing

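The count of bound genes was 10 of 31 with any overlap, with each peak given to the nearest start (where GA20OX2 and GA20OX3 replaced GA3OX2 and RGL1) and with overlapping peaks joined, and 11 with 5000 bp upstream, when 19.1, 11.7, 18.0 and 23.0% of all genes were bound. With 1000 bp upstream to the gene end it was 6, at 9.91%, without GA3OX4, GA2OX8, RGL1 and GID1B. The count of peaks with a box rose from 1 to 6 when C or T and A or G were allowed at the inner positions (56.1% of other peaks) and to 8 with 1 mismatch (80.0%). It was 1 in the central 200 bp (14.6% of other peaks). Peaks with a called site fell from 9 to 5 with the 10 bp core alone, and were 10, 8 and 9 with 1 site per 1000 bp, with 1 per 4000 bp and with all peaks in the fit. The shares of the other peaks under these alternative settings are not given here. Whether the fall is particular to the peaks at gibberellin genes therefore cannot be told. The causes were not tested. No paired analysis was possible because the replicates were combined before deposit, and for the same reason no replicate could be left out. With 31 genes and presence alone, differences of a few genes between roles could not be resolved.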
